A study of Mus musculus with 12 samples.

Results

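Neurons of the pontine nuclei labelled through Hoxa5 were compared with pontine neurons labelled through Math1, in 3 libraries against 3, which are 6 of the 12 libraries of the study. The members were chosen by name: the count columns that name Hoxa5 and cre, and the reference columns that name Math1 and creErt2, which have a like depth. The embryos were of the CD-1 strain, at stage E18.5, shortly before birth. The first group is Hoxa5tdTomato, named for Hoxa5 and for tdTomato, a red fluorescent protein, with a count column that names cre, the recombinase that switches such a label on. The second group is Math1tdTomato, labelled through Math1 (Atoh1) with creErt2, a Cre fused to an estrogen receptor domain that acts when tamoxifen is given; these are called the creErt2 references here. The labels number the Math1tdTomato libraries 1 to 6, and which of them the creErt2 columns are follows from no label, so these columns keep their own numbers. Sorted pools of 2000 cells were lysed per replicate, and RNA of 1000 cell equivalents was amplified. The label marks every cell in which the recombinase has acted, whether or not the driving gene is still on, and the groups differ both in the driving gene and in the recombinase, so that these cannot be told apart. The labels do not give the tamoxifen schedule, the source of the Hoxa5 recombinase or the number of embryos pooled, and nothing says that replicates came from separate embryos or litters, so p-values measure the spread between these libraries, which may be technical.

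Pontine nuclei relay signals from the cerebral cortex to the cerebellum as mossy fibers. Their neurons are born in the rhombic lip of the hindbrain, where Atoh1 is expressed, and migrate along the hindbrain surface to the ventral pons under the guidance of netrin, Slit and other cues. Hox genes are homeobox transcription factors whose order along the chromosome follows their order along the body axis, so that genes of higher paralog number are expressed by neurons from more posterior segments.

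The libraries held 9973484 to 13302076 counts over 23079 genes, and 15289 to 16290 genes had a count in a library. Log2 CPM, in which counts are set relative to the scaled library size, correlated across genes at 0.938 to 0.951 within Hoxa5tdTomato, at 0.942 to 0.943 within the references and at 0.903 to 0.930 between the groups. The first principal component held 40.2% of the variance and separated the groups. Xist, the noncoding RNA of the inactive X chromosome, stood at 4.70 CPM in Hoxa5tdTomato replicate 1, against 2589.3 to 4422.6 CPM elsewhere in the pair, while Y-linked Ddx3y was detected in every library. The same replicate carried more RNA of microglial genes: their summed level was 56.1 CPM there, against 8.23 and 12.1 CPM in the other Hoxa5tdTomato replicates and 3.63 to 9.42 CPM in the references.

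Hoxa5 itself was measured first, because it checks the labels. It lies at chr6:52201754-52204587 (mm10), and its level was 137.4, 239.6 and 128.8 CPM in Hoxa5tdTomato against 9.353, 9.14 and 24.35 CPM in the references. The lowest Hoxa5tdTomato library was above the highest reference (log2 difference 3.56 ± 0.325, adjusted p = 2.45e-06 by edgeR's quasi-likelihood test). An exact two-sided permutation test of the same values gave p = 0.1, the smallest that 20 splits of 3 against 3 can give. Fitted together with all 12 libraries of the study, whose spread is larger, the difference was 3.53 with an adjusted p of 0.0698 (1.76e-25 to 0.0698 over all alternatives).

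The 250 bases before the starts of Hoxa5 and Hoxa2 are shown because these genes of one cluster lie on either side of the pattern: Hoxa5 was higher in the neurons labelled through it, and Hoxa2 overlapped between the groups. Both windows, at chr6:52204588-52204837 and chr6:52164832-52165081 on the minus strand of GRCm38.p6, come from RefSeq and overlap no annotated exon. Capitals mark matches to TGATNNAT, the letters of a joint Hox and Pbx site, and to TAATTA, the core letters read by many homeodomains, searched on both strands.
Hoxa5: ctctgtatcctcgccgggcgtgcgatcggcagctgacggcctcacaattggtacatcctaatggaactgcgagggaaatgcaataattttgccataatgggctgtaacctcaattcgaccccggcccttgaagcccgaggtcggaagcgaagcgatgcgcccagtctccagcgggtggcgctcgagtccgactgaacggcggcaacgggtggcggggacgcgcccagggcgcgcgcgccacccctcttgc
Hoxa2: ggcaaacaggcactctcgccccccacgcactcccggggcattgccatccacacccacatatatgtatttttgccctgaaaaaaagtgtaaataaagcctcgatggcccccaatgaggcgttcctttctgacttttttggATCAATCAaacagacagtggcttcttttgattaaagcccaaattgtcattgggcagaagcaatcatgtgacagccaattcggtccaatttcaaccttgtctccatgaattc
The Hoxa2 window held 1 TGATNNAT match, on the other strand, starting 111 bases before the gene, and no TAATTA. The Hoxa5 window held neither run of letters. Of 32851 promoter windows of this length, 7.68% held TGATNNAT and 4.84% held TAATTA. A match describes the letters only and is no measured binding site.

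Across all genes, 13629 passed the filter on low counts and 980 of them (7.19%) differed at an adjusted p under 0.05 by edgeR's quasi-likelihood test. Of these, 570 (4.18% of those tested) were higher in Hoxa5tdTomato and 410 (3.01%) were lower. No overlap between the groups was seen for 568 of the 570 and 406 of the 410, and over all tested genes 1861 (13.7%) lay wholly above and 1610 (11.8%) wholly below. The median difference of the called higher genes was 1.42 on the log2 scale, 203 of them exceeded 2 on that scale, and 194 lay under 5 CPM on average in the references. Genes that were lower had a median difference of -0.66, only 12 of them exceeded 2 in size, and 14 lay under 5 CPM on average in Hoxa5tdTomato. The lower genes were also the more abundant, with a median level of 141 CPM against 28.0 CPM for the higher genes and 25.2 CPM for all tested genes. With library size as the only scaling, 72.4% of the called genes were higher instead of 58.2%, and the median of all genes moved to 0.091. All 980 genes kept their direction in each alternative that was run. Leaving out 1 library left 514 to 741 of them called, the fewest without Hoxa5tdTomato replicate 1. With all 12 libraries in the fit, 82 of them were called.

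**Figure D1:**
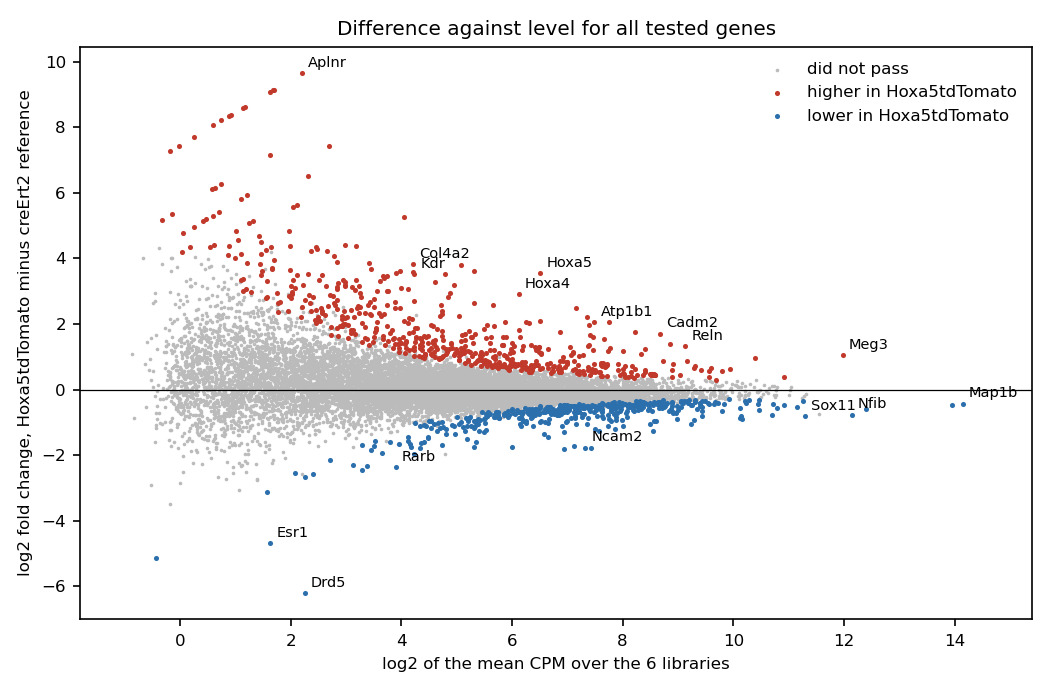
Each point is 1 of the 13629 tested genes, with the log2 of its mean CPM over the 6 libraries on the horizontal axis and the log2 difference, Hoxa5tdTomato minus creErt2 reference, on the vertical axis. The 570 higher genes (red) reach far up at low levels, and the 410 lower genes (blue) lie mostly near the line at high levels.

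Hox genes formed a clear pattern by paralog group. Of 39 Hox genes listed, 15 had no count in the 6 libraries and 12 could be tested. Among paralog groups 4 to 7, 6 of 7 tested genes were higher and none was lower, with a median difference of 2.92 against 0.01 over all tested genes. The 6 include Hoxa5, through which the group was labelled. They also include Hoxa7, which had no count in the references and passed the filter only through Hoxa5tdTomato. Hoxa4, Hoxc4, Hoxb5 and Hoxc5 are the others. All 6 stayed called whichever single library was left out, and 3 (Hoxc4, Hoxb5 and Hoxa4) also with all 12 libraries. Among groups 1 to 3, 1 of 5 was higher and 1 was lower, with a median of 0.03.

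Hoxa4, the neighbour of Hoxa5, was at 117.1, 138.1 and 113.0 CPM in Hoxa5tdTomato against 4.724, 23.84 and 20.05 CPM in the references (log2 difference 2.92 ± 0.357, adjusted p = 4.89e-05). Hoxc4, on chromosome 15, had the highest mean level of the called Hox genes before division by length, 274.6, 223.8 and 227.2 CPM in Hoxa5tdTomato against 21.07, 62.38 and 44.88 CPM in the references (log2 difference 2.50 ± 0.256, adjusted p = 7.23e-06). The groups did not overlap for either gene, and reference replicate 1 was the lowest for both. Hoxb5, on chromosome 11, was at 80.76, 77.33 and 65.98 CPM in Hoxa5tdTomato against 14.36, 24.78 and 17.95 CPM in the references (log2 difference 1.97 ± 0.229, adjusted p = 2.66e-05). Hoxc5 was at 30.98, 16.24 and 19.81 CPM in Hoxa5tdTomato against 0.5669, 2.732 and 3.342 CPM in the references (log2 difference 3.33 ± 0.516, adjusted p = 0.000481). Genes of 3 Hox clusters thus stood higher in the same libraries. Hoxa7 had 46, 81 and 29 counts in Hoxa5tdTomato and none in the references, which makes it at least 46.4-fold higher with the floor of 3 counts over the whole group (adjusted p = 0.0014). Hoxa6 had 3, 9 and 6 counts against none and was too low to test.

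Among the more anterior paralog groups, Hoxa3 was higher and Hoxb3 lower, and the other tested genes did not pass. Hoxa3 was at 153.2, 168.2 and 168.1 CPM in Hoxa5tdTomato against 61.41, 118.4 and 94.05 CPM in the references (log2 difference 0.84 ± 0.183, adjusted p = 0.00793). Hoxb3, a gene of pontine neurons, was lower, at 107.7, 93.05 and 108.2 CPM in Hoxa5tdTomato against 110.6, 179.2 and 168.3 CPM in the references (log2 difference -0.57 ± 0.167, adjusted p = 0.0458). Hoxb3 lost its call without any 1 of Hoxa5tdTomato replicates 1, 2 and 3 and reference replicates 2 and 3 (adjusted p up to 0.21, where the difference was -0.44; 0.00486 to 0.653 over all alternatives). The groups overlapped for Hoxa2 (log2 0.03, adjusted p = 0.952), Hoxb2 (log2 -0.33, adjusted p = 0.692) and Hoxd3 (log2 0.03, adjusted p = 0.957). Hoxb4 did not pass (log2 0.67, adjusted p = 0.336), although its libraries did not overlap. The annotated span of Hoxa3 covers Hoxa4, Hoxa5 and Hoxa6, that of Hoxb3 covers Hoxb4, and the antisense gene Hoxaas3, at 4.796, 4.878 and 7.529 CPM against 1.039, 0.9422 and 1.337 CPM, overlaps Hoxa5. The strand setting of the counting is not given, so reads at these loci cannot be assigned to 1 gene with certainty.

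Per kilobase of gene length, the order of levels in Hoxa5tdTomato was Hoxa2 at 100.2 ± 17.8 CPM per kb (SD, n = 3), Hoxc4 at 94.25 ± 11.1, Hoxa5 at 89.8 ± 32.8 and Hoxa4 at 80.3 ± 8.81. These neighbours in the order differ by less than their spread. In the references Hoxa2 led alone at 98.4 ± 5.18 CPM per kb, and Hoxa5 stood at 7.61 ± 4.64 and Hoxa4 at 10.6 ± 6.62.

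**Figure D2:**
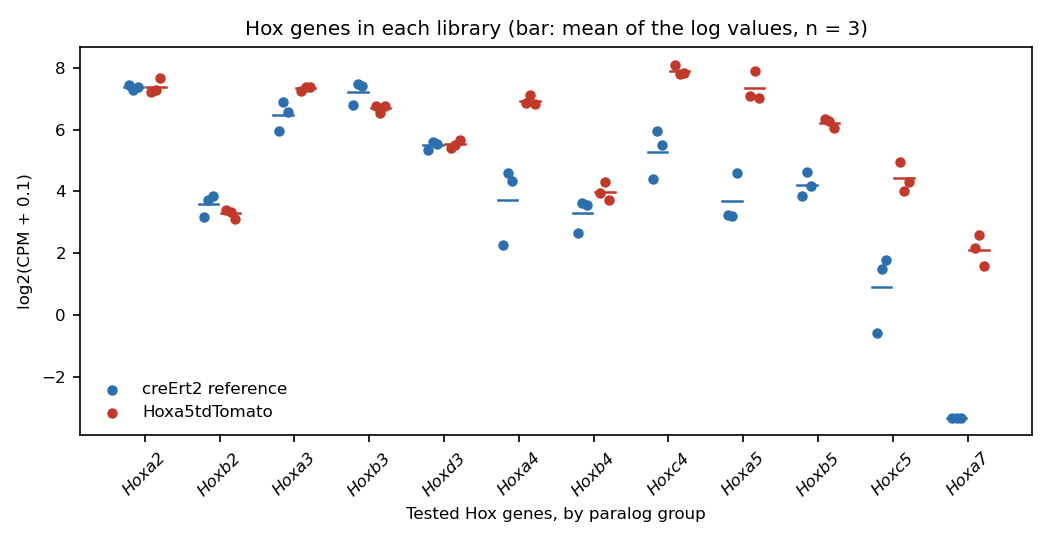
Each point is a library, with log2(CPM + 0.1) on the vertical axis and the 12 tested Hox genes on the horizontal axis; short bars are means of the log values (n = 3 per group). Hoxa4, Hoxc4, Hoxa5, Hoxb5, Hoxc5 and Hoxa7 stand apart between the groups, and the references have no count of Hoxa7.

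Cofactors and regulators of Hox genes are given beside 4.18% higher and 3.01% lower over all tested genes. Every call in these lists was lost without some single library, and also with all 12 libraries. Of 11 TALE homeodomain cofactors, which bind DNA beside Hox proteins, none was higher and 2 were lower, with a median of -0.30. Meis2 was one of these (log2 -0.64, adjusted p = 0.00966). Meis2 lost its call without Hoxa5tdTomato replicate 1 (adjusted p = 0.0606, where the difference was -0.58; 0.000303 to 0.707 over all alternatives). Of 20 genes of the Polycomb complexes, which keep Hox genes silent, 1 passed at the edge, Ezh2 (log2 -0.48, adjusted p = 0.05), with a median of -0.08. Ezh2 lost its call without any 1 of Hoxa5tdTomato replicates 1, 2 and 3 and reference replicates 2 and 3 (adjusted p up to 0.196, where the difference was -0.41; 0.0129 to 0.468 over all alternatives).

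Retinoic acid receptor beta differed strongly. Rarb, a receptor whose gene is itself switched on by retinoic acid, was at 4.988, 6.116 and 3.368 CPM in Hoxa5tdTomato against 29.76, 19.79 and 25.4 CPM in the references (log2 difference -2.36 ± 0.359, adjusted p = 0.000417). The groups were well apart, and the call held without any single library. Crabp1, which carries retinoic acid in the cytoplasm, was also lower (log2 -0.98, adjusted p = 0.0065). Crabp1 lost its call without any 1 of Hoxa5tdTomato replicates 1 and 2 (adjusted p up to 0.0574, where the difference was -0.87; 1.38e-05 to 0.602 over all alternatives). Of the 9 tested genes of this list, none was higher, the median was -0.30, and with all 12 libraries neither was called.

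The labelled tissue was checked against 13 genes that define pontine neurons, 12 of which were tested. Barhl1, a homeobox gene of rhombic lip derivatives, was at 179.4, 168.3 and 169.1 CPM in Hoxa5tdTomato against 191.1, 210.7 and 211.8 CPM in the references, and the vesicular glutamate transporter Slc17a6 at 330.8, 328.8 and 324.8 CPM in Hoxa5tdTomato against 388.0, 352.5 and 301.1 CPM in the references. Neither gene passed edgeR's quasi-likelihood test (adjusted p = 0.234 and 0.752), although Barhl1 was lower in every Hoxa5tdTomato library than in any reference. Slc17a7, the other vesicular glutamate transporter, was near 0 in all 6 libraries. The list's summed level was 5104.4 to 5644.4 CPM in Hoxa5tdTomato and 7638.4 to 7983.3 CPM in the references. Nfib made up the larger part of both sums, at 2980.7 to 3725.6 against 5289.2 to 5954.4 CPM. The difference between the sums is therefore mostly that of Nfib and does not describe the list as a whole. None of the 12 was higher and 4 were lower, among them Nfib, Nhlh2 and Hoxb3, with a median of -0.28. Wholly below the references lay 5 of the 12 and wholly above 1, beside 11.8% and 13.7% of all tested genes. In bulk libraries, fewer cells of a type and less RNA per cell cannot be told apart.

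The lists with the highest median differences were those of blood vessels and of the tissue around them. Of 10 tested endothelial markers, 9 were higher, with a median difference of 3.49. Of 9 tested mural cell markers, 8 were higher, with a median of 3.56, and of 4 tested meningeal markers 3 were higher. Members without a count in the references, such as Tie1 and Anpep, passed the filter on low counts only through Hoxa5tdTomato. So did members with few counts there, such as Esam at 0.09448, 0.4711 and 1.05 CPM in the references. These shares and medians are therefore partly set by the filter, whereas the sums that follow hold every member, tested or not. The summed endothelial level was 101.3 to 189.8 CPM in Hoxa5tdTomato and 2.73 to 25.9 CPM in the references; the mural sum was 129.3 to 259.0 against 11.1 to 23.1 CPM, and the meningeal sum 42.1 to 85.9 against 6.12 to 14.7 CPM. None of the 3 sums overlapped between the groups. Every member of the 3 lists had a count in at least 1 library except Slc6a13, of the meninges. Without any 1 library, 4 of the 9 endothelial, 6 of the 8 mural and 1 of the 3 meningeal calls held throughout, and none was called with all 12 libraries.

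Kdr, a receptor for vascular endothelial growth factor, was at 29.06, 26.07 and 48.94 CPM in Hoxa5tdTomato against 3.59, 0 and 5.442 CPM in the references (log2 difference 3.52 ± 0.658, adjusted p = 0.00236). Tie1, a receptor of endothelium, was at 1.822, 4.296 and 4.953 CPM and had no count in the references. Abcc9 and Rgs5, of pericytes, were at 41.72, 48.93 and 97.48 CPM against 1.701, 1.979 and 9.93 and at 20.81, 23.59 and 43 CPM against 3.401, 1.036 and 2.673 (log2 3.79, adjusted p = 0.000125, and log2 3.61, adjusted p = 5.56e-05). Hoxa5tdTomato replicate 3 was highest for Kdr, Tie1, Abcc9 and Rgs5. Igf2, an imprinted growth factor gene of meninges and vessels, was at 31.56, 47.77 and 71.13 CPM in Hoxa5tdTomato against 5.007, 5.088 and 11.17 CPM in the references (log2 difference 2.82 ± 0.361, adjusted p = 7.47e-05).

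Basement membrane and collagen genes shared this direction: 11 of 23 tested were higher and none was lower, with a median of 1.56. The chains of collagen IV led, Col4a2 at 38.75, 27.52 and 37.25 CPM in Hoxa5tdTomato against 1.89, 1.131 and 4.201 CPM in the references (log2 difference 3.84 ± 0.422, adjusted p = 1.45e-05) and Col4a1 at 55.15, 67.5 and 98.57 CPM in Hoxa5tdTomato against 4.913, 1.319 and 11.84 CPM in the references (log2 3.61, adjusted p = 8e-05). Lama1 (log2 1.56, adjusted p = 0.000151), a laminin chain, and Nid1 (log2 2.59, adjusted p = 0.00058), which links laminin to collagen, followed. These 4 genes held their calls without any single library, but none of the 11 calls of this list held with all 12 libraries. Slc2a1, the glucose transporter of brain endothelium, was at 89.11, 41.14 and 75.39 CPM in Hoxa5tdTomato against 12.94, 8.386 and 11.74 CPM in the references (log2 difference 2.63 ± 0.289, adjusted p = 1.42e-05). Unlike those genes, Slc2a1 was called with all 12 libraries. Of 17 tested genes of hypoxia and glycolysis 4 were higher and none was lower, with a median of 0.28.

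**Figure D3:**
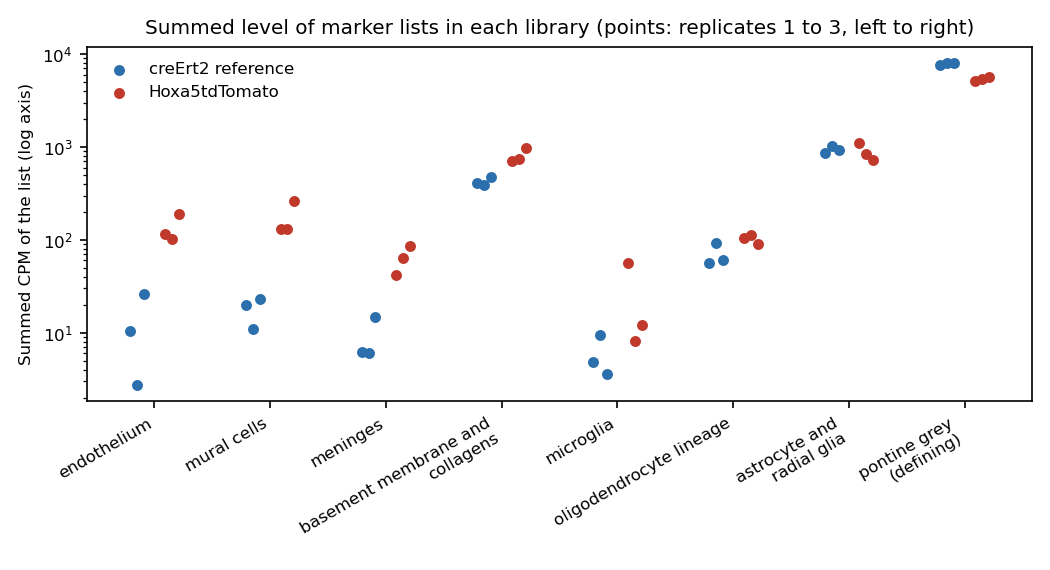
The vertical axis (log scale) is the summed CPM of the genes of each list in each library, with replicates 1 to 3 from left to right. Endothelial, mural and meningeal sums lie apart between the groups, and the microglial sum of Hoxa5tdTomato replicate 1 stands at 56.1 CPM. The pontine sum, of which Nfib is the larger part, is lower in Hoxa5tdTomato.

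The largest differences fell mostly on genes with no count in the references. All of the 12 largest among the higher genes had none, so that they passed the filter on low counts only through Hoxa5tdTomato. Aplnr, the apelin receptor of vessels, had 306 counts in Hoxa5tdTomato, which makes it at least 97.2-fold higher (adjusted p = 7.25e-05), and it was also called with all 12 libraries. The same bound was at least 68.5-fold for Anpep, an aminopeptidase of pericytes, 67.5-fold for the amino acid transporter Slc38a5, 64.9-fold for the chemerin receptor Cmklr1 and 47.3-fold for Ctla2a. After Hoxa7 came Pcdh12 (39.8-fold), Tie1 (39.0-fold), Ggt5 (35.4-fold), Colec12 (32.1-fold), Gata2 (25.2-fold) and Cd82 (20.8-fold). These 12 genes were below 15 CPM in every library. When the genes of the vessel, meningeal and matrix lists were set aside, 949 called genes were left, 539 higher and 410 lower; the part of vessel cells in the other genes was not tested.

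Markers of other cell types moved less. Of 7 tested astrocyte markers none passed; the sum was 717.6 to 1110.5 CPM against 854.2 to 1019.2 CPM. Of 8 oligodendrocyte lineage markers 1 was higher, Cspg4 (log2 2.46, adjusted p = 0.00372), which is also a mural cell gene. Of 5 tested dividing cell markers 1 was higher, Mki67 at 15.06, 3.422 and 17.14 CPM in Hoxa5tdTomato against 0.3779, 2.356 and 2.196 CPM in the references (log2 2.84, adjusted p = 0.0179). Mki67 lost its call without any 1 of Hoxa5tdTomato replicates 1 and 3 (adjusted p up to 0.101, where the difference was 2.63; 0.000539 to 0.438 over all alternatives). Of 5 tested GABAergic markers 1 was higher. Gad2, which makes GABA, had the highest level of that list but did not differ beyond the spread, and the vesicular GABA transporter Slc32a1 stayed under 6 CPM. No tested marker of serotonergic, noradrenergic or cholinergic neurons passed, and Fev, Mnx1 and Gabra6 had no count in any of the 6 libraries. The summed GABAergic level was 221.7 to 303.0 CPM against 204.7 to 259.9 CPM, and the dividing cell sum 40.5 to 73.6 against 33.4 to 39.0 CPM. The part of such cells in the results was not tested.

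Among neuronal genes, the smallest p belonged to Cadm2, a cell adhesion molecule of synapses and axons at chr16:66655416-67620917 (mm10). It was at 676.0, 580.0 and 627.1 CPM in Hoxa5tdTomato against 197.0, 194.7 and 186.4 CPM in the references, with little spread in either group (log2 difference 1.70 ± 0.1, adjusted p = 3.5e-08). Atp1b1, the beta subunit of the sodium pump, was at 325.4, 266.1 and 278.5 CPM in Hoxa5tdTomato against 77, 59.93 and 72.47 CPM in the references (log2 difference 2.06 ± 0.138, adjusted p = 1.43e-07). St18, a zinc finger transcription factor, was at 229.2, 344.8 and 235.7 CPM in Hoxa5tdTomato against 55.46, 61.9 and 55.67 CPM in the references (log2 difference 2.23 ± 0.16, adjusted p = 2.12e-07). Each of these 3 separated the groups without overlap and was called under every alternative run.

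Lmo3, a LIM-only cofactor of transcription, was at 226.8, 307.1 and 272.9 CPM in Hoxa5tdTomato against 59.52, 73.21 and 73.33 CPM in the references (log2 difference 1.97 ± 0.145, adjusted p = 2.19e-07). Its relative Lmo4 went the other way, at 224.2, 306.8 and 262.1 CPM in Hoxa5tdTomato against 490.3, 565.9 and 490.8 CPM in the references (log2 difference -0.96 ± 0.118, adjusted p = 4.89e-05). Both were called with all 12 libraries. Ptprz1, a receptor phosphatase with chondroitin sulfate chains that is also abundant in glia, was at 486.5, 478.7 and 410.0 CPM in Hoxa5tdTomato against 124.3, 161.5 and 121.7 CPM in the references (log2 difference 1.75 ± 0.127, adjusted p = 2.12e-07). Vat1l and the uncharacterized AI593442 had log2 differences of 2.59 and 2.06 (adjusted p = 5.17e-07 and 1.07e-06).

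On the lower side, Aff2, a regulator of transcription and the gene of fragile X E syndrome, came first at 202.7, 218.8 and 240.2 CPM in Hoxa5tdTomato against 519.5, 570.9 and 502.7 CPM in the references (log2 difference -1.27 ± 0.105, adjusted p = 7.85e-07). Ncam2, an adhesion molecule, was at 56.97, 66.19 and 94.61 CPM in Hoxa5tdTomato against 262.8, 234.1 and 245.6 CPM in the references (log2 difference -1.77 ± 0.164, adjusted p = 2.55e-06). Gas7, which acts on the actin cytoskeleton, was at 101.5, 113.0 and 124.7 CPM in Hoxa5tdTomato against 277.8, 247.4 and 284.5 CPM in the references (log2 -1.25, adjusted p = 5.6e-06), and the giant cadherin Fat4 at 714.6, 765.4 and 883.6 CPM in Hoxa5tdTomato against 1508.8, 1424.5 and 1519.3 CPM in the references (log2 -0.91, adjusted p = 5.6e-06). The groups did not overlap for any of the 4, and all 4 were called with all 12 libraries. Ier5 (log2 -1.13, adjusted p = 5.6e-06) and Wscd1 (log2 -1.79, adjusted p = 7.91e-06) completed this group with genes described below.

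**Figure D4:**
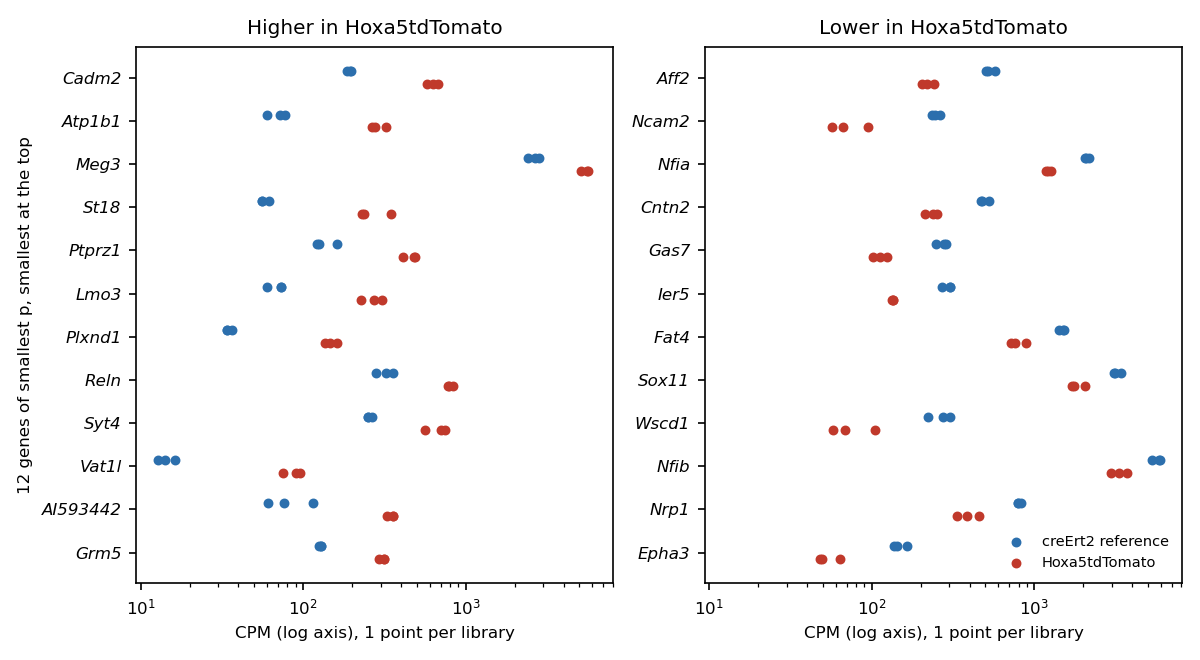
Each point is the CPM of a gene in a library (log axis); the left panel holds the 12 genes of smallest p that were higher in Hoxa5tdTomato and the right panel the 12 that were lower. The genes were picked by their p in these same libraries, so that the groups are apart for all 24 follows from the choice.

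A few receptors were nearly silent in Hoxa5tdTomato. Drd5, a dopamine receptor, had 4 counts in the 3 Hoxa5tdTomato libraries and 298 in the references, or 0.09592, 0.1456 and 0.09907 CPM in Hoxa5tdTomato against 11.81, 5.559 and 10.88 CPM in the references (log2 difference -6.21 ± 0.803, adjusted p = 8.23e-05). Esr1, the estrogen receptor alpha gene, had 8 counts against 190, or 0.1918, 0.4369 and 0 CPM in Hoxa5tdTomato against 5.574, 6.973 and 5.442 CPM in the references (log2 difference -4.69 ± 0.94, adjusted p = 0.00415). In the 6 libraries outside the pair, all labelled through Math1, Esr1 ran from 2.24 to 6.62 and Drd5 from 0 to 6.61 CPM of the total count. The creErt2 gene carries estrogen receptor sequence, and whether its reads were counted as Esr1 was not tested.

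Sstr2, a somatostatin receptor, was lower (log2 -2.55, adjusted p = 0.0236), as was its ligand's gene Sst, at 18.9, 26.36 and 11.89 CPM in Hoxa5tdTomato against 51.11, 55.4 and 55.57 CPM in the references (log2 difference -1.50 ± 0.265, adjusted p = 0.00156). Sstr2 lost its call without any 1 of Hoxa5tdTomato replicates 1, 2 and 3 and reference replicates 1 and 3 (adjusted p up to 0.107, where the difference was -2.34; 0.00142 to 0.253 over all alternatives). Of 26 tested receptors for neuromodulators, 1 was higher, the prostaglandin receptor Ptger3 (log2 3.91, adjusted p = 0.000202), and 4 were lower, the fourth being the cannabinoid receptor Cnr1 (log2 -0.65, adjusted p = 0.00149). Etnppl had 1 count against 46, a ratio of 49.8 with a 95% exact interval of 8.50 to 2010. It lost its call without any of the 6 libraries (adjusted p up to 0.163, where the difference was -4.60; 0.0286 to 0.442 over all alternatives).

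The nuclear factor I genes, transcription factors that promote the maturation of rhombic lip neurons, fell: 3 of 4 were lower, with a median of -0.77. Nfib was at 2980.7, 3330.2 and 3725.6 CPM in Hoxa5tdTomato against 5289.2, 5815.7 and 5954.4 CPM in the references (log2 difference -0.77 ± 0.0798, adjusted p = 7.91e-06). Nfia was at 1208.3, 1187.6 and 1267.0 CPM in Hoxa5tdTomato against 2171.4, 2083.7 and 2047.1 CPM in the references (log2 difference -0.78 ± 0.0761, adjusted p = 4.82e-06), and Nfix at 792.2, 714.4 and 970.7 CPM in Hoxa5tdTomato against 1601.2, 1434.5 and 1265.0 CPM in the references (log2 difference -0.80 ± 0.111, adjusted p = 0.000184). All 3 were among the more abundant transcripts of these cells, separated the groups, and were called without any single library; Nfib and Nfix were also called with all 12.

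Basic helix-loop-helix factors of neurons followed the same direction, 6 of 16 lower and 1 higher, with a median of -0.33. Over all tested genes 3.01% were lower and 4.18% higher. Of the 7 calls, 6 held without any single library and none with all 12 libraries. Nhlh1, a factor of newly formed neurons, was at 14.29, 9.975 and 13.47 CPM in Hoxa5tdTomato against 35.52, 44.1 and 43.06 CPM in the references (log2 difference -1.70 ± 0.263, adjusted p = 0.000479), and its relative Nhlh2 was lower as well (log2 -1.02, adjusted p = 0.00563). Tcf12 (log2 -0.68, adjusted p = 0.0014), Neurod2 (log2 -0.60, adjusted p = 0.00177) and Tcf4 (log2 -0.44, adjusted p = 0.00252) were among the others. Atoh1, through which the references were labelled, was under 7 CPM in every library and did not pass (log2 1.98, adjusted p = 0.317).

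Among 33 tested homeodomain and zinc finger factors of precerebellar neurons, 3 were higher and 8 lower, with a median of -0.24. Beside Lmo3 and Lmo4, Pou4f2 (log2 -0.86, adjusted p = 0.001) and Ebf3 (log2 -1.02, adjusted p = 0.0012) were lower. Of the 7 genes of the St18, Myt1 and Aff families, St18 rose and 4 fell, Aff2, Myt1l (log2 -0.62, adjusted p = 0.000504), Myt1 (log2 -0.66, adjusted p = 0.00534) and Aff4 (log2 -0.37, adjusted p = 0.0316). Aff4 lost its call without any 1 of Hoxa5tdTomato replicates 1 and 2 and reference replicates 2 and 3 (adjusted p up to 0.156, where the difference was -0.30; 0.00707 to 0.28 over all alternatives).

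Genes of immature neurons and their cytoskeleton were lower in 7 of 22 cases and higher in 1, with a median of -0.09. Sox11, a transcription factor of young neurons, was at 1699.4, 1752.8 and 2036.4 CPM in Hoxa5tdTomato against 3146.9, 3093.0 and 3409.9 CPM in the references (log2 difference -0.81 ± 0.0816, adjusted p = 5.6e-06). Dcx, a microtubule protein of migrating neurons, was at 4018.7, 4364.6 and 4635.3 CPM in Hoxa5tdTomato against 6718.1, 6485.5 and 6386.1 CPM in the references (log2 difference -0.59 ± 0.0663, adjusted p = 1.89e-05). Map1b, a microtubule protein of growing axons and one of the most abundant transcripts, was at 14031.3, 15732.2 and 16612.9 CPM in Hoxa5tdTomato against 19232.8, 20739.4 and 22548.6 CPM in the references (log2 difference -0.43 ± 0.0654, adjusted p = 0.000413). The groups did not overlap for the 3 genes, and Sox11 and Map1b were called with all 12 libraries. The exception was Gap43, a protein of growth cones, which was higher, at 1019.7, 1016.1 and 823.1 CPM in Hoxa5tdTomato against 571.1, 631.1 and 608.0 CPM in the references (log2 difference 0.66 ± 0.099, adjusted p = 0.000369).

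Of 15 tested genes of the netrin system 2 were higher and 4 lower, with a median of 0.07, and 2 of the 6 calls held without any single library and none with all 12 libraries. Dcc, the receptor through which netrin attracts axons, was at 127.9, 131.6 and 164.3 CPM in Hoxa5tdTomato against 259.6, 320.3 and 395.9 CPM in the references (log2 difference -1.20 ± 0.148, adjusted p = 5.02e-05), and Unc5c, which mediates repulsion by netrin, was lower too (log2 -0.45, adjusted p = 0.0028). Dcc and Unc5c are the 2 that held. Robo3, a receptor of the midline that pontine neurons need for crossing, was at 56.01, 74.34 and 80.44 CPM in Hoxa5tdTomato against 111.6, 208.1 and 202.1 CPM in the references (log2 difference -1.31 ± 0.204, adjusted p = 0.000504). The Slit receptors Robo1, at 89.01, 73.47 and 101.6 CPM in Hoxa5tdTomato against 42.52, 33.26 and 37.24 CPM in the references (log2 difference 1.22 ± 0.189, adjusted p = 0.000465), and Robo2 (log2 0.60, adjusted p = 0.00173) were higher instead, as was the ligand Slit3 (log2 2.24, adjusted p = 0.000171). Of 11 genes of this system 4 were higher and 2 lower, with a median of 0.52; 4 of the 6 calls held without any single library and none with all 12 libraries.

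Neuropilins moved apart. Nrp1, which receives class 3 semaphorins and vascular endothelial growth factor, was at 334.6, 385.8 and 459.4 CPM in Hoxa5tdTomato against 796.9, 825.8 and 797.8 CPM in the references (log2 difference -1.04 ± 0.109, adjusted p = 8.66e-06). Nrp2 was at 127.0, 220.0 and 196.1 CPM in Hoxa5tdTomato against 50.26, 53.05 and 56.91 CPM in the references (log2 difference 1.76 ± 0.18, adjusted p = 7.06e-06). Among the 6 libraries each neuropilin separated the groups, in opposite directions, and both were called with all 12 libraries.

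Plexins, the signalling partners of neuropilins, were led by Plxnd1, which is known from neurons and from endothelium, at 135.6, 161.5 and 145.4 CPM in Hoxa5tdTomato against 36.75, 33.83 and 34.18 CPM in the references (log2 difference 2.08 ± 0.155, adjusted p = 2.33e-07). Plxna4 was at 142.4, 129.8 and 109.4 CPM in Hoxa5tdTomato against 20.12, 34.58 and 37.72 CPM in the references (log2 difference 2.04 ± 0.213, adjusted p = 7.91e-06). In all, 3 of 10 tested neuropilins and plexins were higher and 2 lower, with a median of 0.16. Of 19 tested semaphorins none was higher and 2 were lower, Sema6d at 429.5, 393.3 and 478.9 CPM in Hoxa5tdTomato against 950.9, 717.5 and 789.9 CPM in the references (log2 difference -0.92 ± 0.112, adjusted p = 4.81e-05) and Sema6a (log2 -0.58, adjusted p = 0.00221), with a median of 0.09. The vessel sums given above differed between the same libraries, and their part in Plxnd1 was not tested.

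Eph receptors, which read ephrins on neighbouring cells, were lower in 3 of 13 cases and higher in 1, with a median of 0.07; 2 of the 4 calls held without any single library and 1 with all 12 libraries. Epha3 was at 63.59, 48.27 and 49.73 CPM in Hoxa5tdTomato against 143.1, 163.9 and 137.6 CPM in the references (log2 difference -1.46 ± 0.158, adjusted p = 1.3e-05), and Ephb1 at 41.63, 64.37 and 52.21 CPM in Hoxa5tdTomato against 107.5, 126.6 and 106.5 CPM in the references (log2 difference -1.10 ± 0.177, adjusted p = 0.00067). Each was lower in every Hoxa5tdTomato library than in any reference. Of 8 ephrins, Efnb3 was higher (log2 0.74, adjusted p = 0.0114), and it lost its call without any 1 of Hoxa5tdTomato replicates 1 and 2 and reference replicate 2 (adjusted p up to 0.0834, where the difference was 0.64; 0.000974 to 0.179 over all alternatives).

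Adhesion molecules of the immunoglobulin family held 14 calls, 9 higher and 5 lower of 35 tested, with a median of 0.37. The contactins, which sit on the axon surface, went both ways: Cntn1 was at 350.1, 366.2 and 347.6 CPM in Hoxa5tdTomato against 153.2, 167.8 and 150.2 CPM in the references (log2 difference 1.18 ± 0.108, adjusted p = 2.49e-06) and Cntn2 at 212.0, 237.1 and 253.6 CPM in Hoxa5tdTomato against 474.9, 469.9 and 524.6 CPM in the references (log2 difference -1.06 ± 0.106, adjusted p = 5.6e-06). Reference and Hoxa5tdTomato libraries did not overlap for either contactin. Of the 14 calls, 13 held without any single library and 5 with all 12.

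Of 10 tested protocadherins outside the clusters 5 were higher and none lower, with a median of 0.54. Pcdh19, the gene of an X-linked epilepsy, was at 366.9, 269.9 and 267.9 CPM in Hoxa5tdTomato against 99.11, 123.6 and 85.93 CPM in the references (log2 difference 1.55 ± 0.154, adjusted p = 5.6e-06). Pcdh18 was higher (log2 1.93, adjusted p = 0.00487), and the other 3 calls did not hold without some single library. None of the 5 held with all 12 libraries. Of 14 tested cadherins 2 were higher and 2 lower. One of the higher genes was Cdh5, which is also in the endothelial list, and neither higher call held without Hoxa5tdTomato replicate 1 or 2. Of the 4 calls, 1 held without any single library, that of Cdh2, the N-cadherin of neurons, at 280.1, 263.3 and 322.3 CPM in Hoxa5tdTomato against 470.1, 409.8 and 395.8 CPM in the references (log2 -0.56, adjusted p = 0.00364).

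Synaptic organizers, which match presynaptic and postsynaptic partners, were higher in 8 of 36 cases and lower in 6, with a median of 0.12; 10 of the 14 calls held without any single library and 2 with all 12 libraries. The teneurins Tenm3, at 255.0, 204.3 and 262.2 CPM in Hoxa5tdTomato against 76.72, 104.1 and 102.5 CPM in the references (log2 difference 1.35 ± 0.148, adjusted p = 1.42e-05), and Tenm1, at 217.8, 177.1 and 171.1 CPM in Hoxa5tdTomato against 71.33, 92.34 and 67.98 CPM in the references (log2 difference 1.29 ± 0.154, adjusted p = 3.73e-05), led the higher genes. Adgrl3, a latrophilin that binds teneurins, was lower, at 503.7, 518.7 and 591.7 CPM in Hoxa5tdTomato against 808.8, 886.6 and 829.4 CPM in the references (log2 difference -0.65 ± 0.0942, adjusted p = 0.000278), as was Elfn2 (log2 -0.88, adjusted p = 0.000464). The groups did not overlap for these 4 genes, and Tenm3 and Tenm1 were called with all 12 libraries.

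Reelin was among the clearest genes. Reln, a large secreted protein that positions migrating neurons, was at 777.3, 836.0 and 783.7 CPM in Hoxa5tdTomato against 323.3, 354.7 and 281.1 CPM in the references (log2 difference 1.32 ± 0.102, adjusted p = 3.72e-07), and it was called under every alternative. Dab1, the adaptor inside the cell that reelin receptors use, was at 153.8, 149.4 and 121.6 CPM in Hoxa5tdTomato against 66.23, 61.43 and 50.7 CPM in the references (log2 difference 1.25 ± 0.159, adjusted p = 6.99e-05). The reelin receptors did not pass, nor did most of the pathway: 3 of 11 genes were higher and none lower, with a median of -0.10. The third was Cdk5r2 (log2 0.85, adjusted p = 0.0228), which lost its call without any 1 of Hoxa5tdTomato replicates 1 and 3 and reference replicates 1 and 2 (adjusted p up to 0.121, where the difference was 0.76; 0.00409 to 0.448 over all alternatives).

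Over all tested genes, 4.18% were higher and 3.01% lower, beside which the counts of the receptor and channel lists stand. Of 25 tested glutamate receptors and transporters 5 were higher and 1 lower, with a median of 0.31. The metabotropic receptor Grm5 was at 293.8, 314.4 and 315.2 CPM in Hoxa5tdTomato against 124.3, 129.3 and 127.9 CPM in the references (log2 difference 1.27 ± 0.111, adjusted p = 1.35e-06), and Grm3 was higher by less (log2 0.74, adjusted p = 0.000583). These are the 2 that held without any single library, and no call of this list held with all 12 libraries. Grid1 (log2 1.27, adjusted p = 0.0221) lost its call without any 1 of Hoxa5tdTomato replicates 1, 2 and 3 and reference replicates 1 and 3 (adjusted p up to 0.0928, where the difference was 1.23; 0.00221 to 0.43 over all alternatives).

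Of 17 tested GABA and glycine receptor genes 5 were higher and 2 lower, with a median of 0.23; 6 of the 7 calls held without any single library and 2 with all 12 libraries. The beta subunit Gabrb2 was at 242.6, 263.7 and 203.9 CPM in Hoxa5tdTomato against 88.72, 87.44 and 106.8 CPM in the references (log2 difference 1.33 ± 0.138, adjusted p = 7.91e-06). The alpha subunit Gabra5 was at 36.06, 41.94 and 39.83 CPM in Hoxa5tdTomato against 7.464, 13.38 and 11.65 CPM in the references (log2 difference 1.86 ± 0.283, adjusted p = 0.000432). Both separated the groups and were called with all 12 libraries. The gamma subunits went apart: Gabrg3 was at 7.002, 5.971 and 4.953 CPM against 0.189, 0.2827 and 0.3819 (log2 4.34, adjusted p = 0.0025), and the far more abundant Gabrg1 fell from 578.6, 570.4 and 537.3 CPM in the references to 311.6, 379.8 and 373.5 CPM (log2 difference -0.66 ± 0.102, adjusted p = 0.000464). Gabrg3 passed the filter on low counts only through Hoxa5tdTomato.

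Potassium channels were higher in 4 of 35 cases and lower in 2, with a median of 0.31; 3 of the 6 calls held without any single library and 1 with all 12 libraries. Kcnd2, of the transient A-type current, was at 247.3, 284.8 and 208.9 CPM in Hoxa5tdTomato against 105.2, 120.4 and 95.39 CPM in the references (log2 difference 1.21 ± 0.141, adjusted p = 2.71e-05). Kcna2, a channel of axons, was lower, at 121.7, 181.2 and 186.3 CPM in Hoxa5tdTomato against 345.6, 364.6 and 340.7 CPM in the references (log2 difference -1.10 ± 0.14, adjusted p = 7.21e-05), and its relative Kcna6 was higher (log2 1.70, adjusted p = 0.00139). Of 28 tested sodium and calcium channel genes 2 were higher and 1 lower, beside 4.18% and 3.01% of all tested genes, and the lower call was lost without any of the 6 libraries. Cacna1e, a calcium channel subunit, was at 608.2, 593.4 and 614.8 CPM in Hoxa5tdTomato against 439.2, 450.0 and 452.2 CPM in the references (log2 0.44, adjusted p = 0.0048).

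Genes of synaptic vesicle release were higher in 4 of 34 cases and lower in 1, with a median of 0.21. Syt4, a synaptotagmin of dense core vesicles, was at 704.0, 744.9 and 561.5 CPM in Hoxa5tdTomato against 252.2, 250.7 and 265.8 CPM in the references (log2 difference 1.39 ± 0.111, adjusted p = 5.17e-07). Syt1, the calcium sensor of fast release, was higher by less (log2 0.57, adjusted p = 0.00147), and Syt6 was higher from a low level (log2 2.08, adjusted p = 0.000651). Sv2b, a vesicle glycoprotein, was lower, at 334.9, 339.9 and 381.7 CPM in Hoxa5tdTomato against 719.1, 639.8 and 626.1 CPM in the references (log2 difference -0.91 ± 0.0992, adjusted p = 1.38e-05). Each of these 4 genes kept its call without any single library, but no call of this list held with all 12 libraries.

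Of 12 tested calcium-binding proteins 3 were higher and none lower, with a median of 0.63. Calb1, calbindin, was at 45.75, 48.06 and 38.64 CPM in Hoxa5tdTomato against 6.141, 7.726 and 12.7 CPM in the references (log2 difference 2.32 ± 0.3, adjusted p = 8.23e-05), and Vsnl1, a neuronal calcium sensor, at 112.1, 105.9 and 107.2 CPM in Hoxa5tdTomato against 37.32, 33.73 and 21.39 CPM in the references (log2 difference 1.81 ± 0.202, adjusted p = 1.68e-05). S100a10 was higher as well (log2 1.48, adjusted p = 0.00163), and all 3 held without any single library but none with all 12 libraries. Of 8 tested neuropeptide and secretory genes 3 were higher, among them Scg2 (log2 1.51, adjusted p = 0.00552), and Sst alone was lower. Gal, the neuropeptide galanin, had 156 counts against 2, a ratio of 72.1 with a 95% exact interval of 19.6 to 601 (adjusted p = 0.0048). It passed the filter on low counts only through Hoxa5tdTomato. Of 28 tested Wnt pathway genes 1 was higher, Sfrp4 (log2 1.84, adjusted p = 0.00216), and 2 were lower, beside 4.18% and 3.01% of all tested genes, with a median of 0.70; 1 of the 3 calls held without any single library and none with all 12 libraries.

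**Figure D5:**
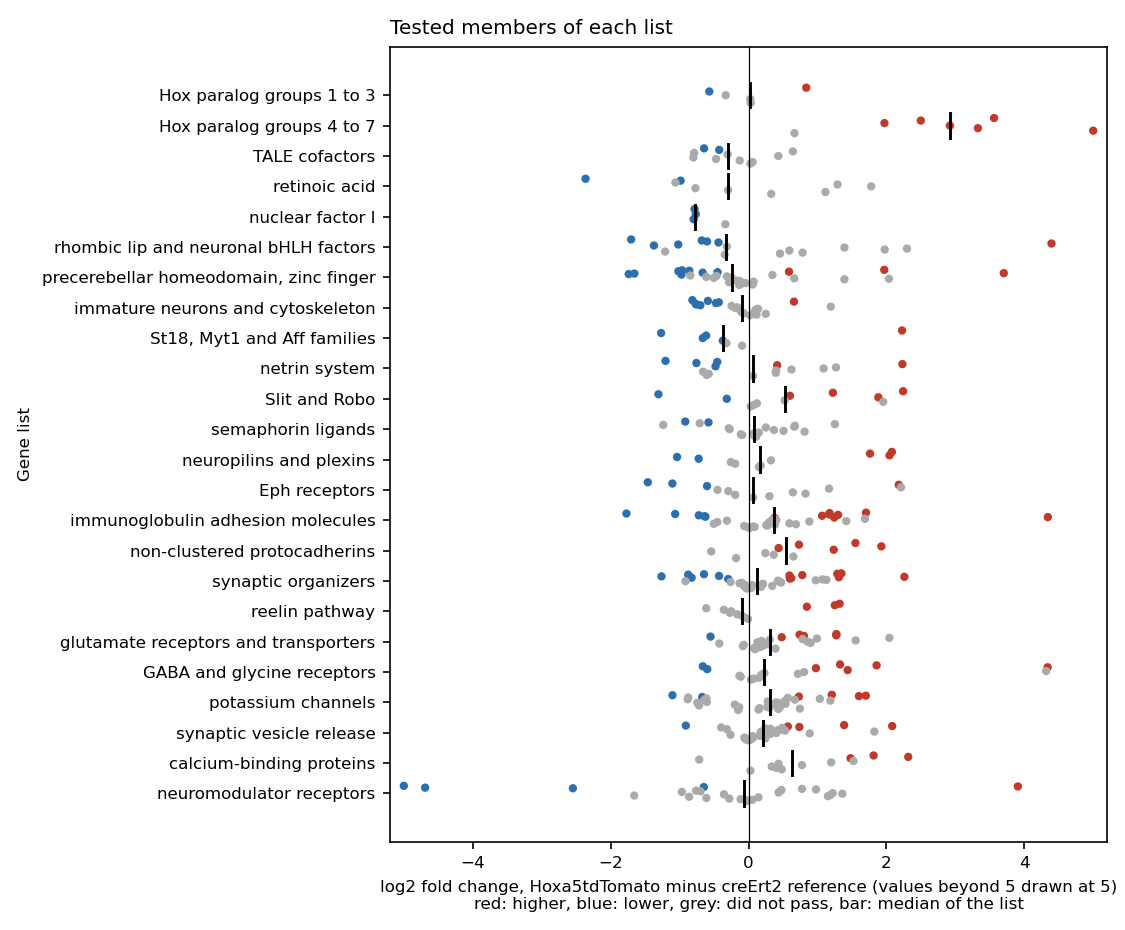
Each point is a tested gene of 1 of 24 lists, with its log2 difference, Hoxa5tdTomato minus creErt2 reference, on the horizontal axis (values beyond 5 are drawn at 5). Red genes were higher, blue genes lower and grey genes did not pass; the bar is the list's median. The Hox genes of groups 4 to 7 lie to the right, with a median of 2.92, and the nuclear factor I genes to the left, with a median of -0.77.

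Genes that respond to handling and ribosomal protein genes were also counted, beside 4.18% higher and 3.01% lower over all tested genes. The 22 tested immediate early and dissociation genes had a median of 0.41, against 0.01 over all tested genes. Of them 6 lay wholly above the references and 1 wholly below, beside 13.7% and 11.8% of all tested genes. The part of handling in the results was not tested. Of 22 tested immediate early and dissociation genes 2 were higher, among them Klf6 at 120.3, 121.1 and 111.8 CPM in Hoxa5tdTomato against 36.66, 48.24 and 52.13 CPM in the references (log2 difference 1.37 ± 0.169, adjusted p = 5.56e-05), and 1 was lower, Ier5 at 135.1, 132.4 and 135.9 CPM in Hoxa5tdTomato against 272.3, 304.2 and 304.8 CPM in the references. Of 74 tested ribosomal protein genes 2 were higher, Rplp1 (log2 0.69, adjusted p = 0.00144) being the one that held without any single library, and the median was 0.13. No sex-linked gene passed.

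The genes whose log2 CPM followed that of Hoxa5 most closely over the 6 libraries were Glra3 (Pearson r = 0.998), Rfng (0.994), Mavs (0.994), Calb1 (0.991) and Sybu (0.991). These values describe 6 libraries in 2 groups, and of the 5 genes Calb1 alone passed the test between groups.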

How the data were processed

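The deposited table gives whole-number counts of reads per gene, which the authors made from reads converted with bcl2fastq 1.8.4 and the mouse genome build mm10, per the submitters' processing notes. For the aligner, annotation, counting tool and strand handling, details were not given in the sources used here. All 12 columns were read, and 6 entered the main comparison. Gene symbols were matched to GRCm38.p6 for 23008 of 23079 IDs. Counts were tested in edgeR 4.0.16 (R 4.3.3, limma 3.58.1) with TMM scaling, the filterByExpr minimum count of 10, quasi-likelihood F tests and Benjamini-Hochberg adjustment over all 13629 tested genes, with a threshold of 0.05. CPM are counts relative to the TMM-scaled library size, a log2 difference is Hoxa5tdTomato minus reference, and ± is its standard error unless SD is given. Folds against a group without counts use a floor of 3 counts over the summed depth of the group's 3 libraries. Like intervals, they cover counting error only. Genes to name were drawn from the tested Hox genes and the 12 called genes of largest difference in each direction. Also drawn on were the 12 of smallest p in each direction and, of each list, the 4 of smallest p. Not all of these are named. Of the 12 lower genes of largest difference, only Drd5, Etnppl, Esr1, Sstr2 and Rarb are. Genes outside these sets were chosen after their values were seen. The part, its gene lists and its tests were chosen with earlier results of these data known. The fit was tested on simulated data. DESeq2 1.42.0, other scalings, no filter, 9 or 12 libraries and leaving out each library were alternatives.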

Additional observations from a re-analysis of the deposited data

How the results depend on the processing

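The number of genes called by edgeR's quasi-likelihood test, 980 with 570 higher and 410 lower, was 82 (43 and 39) with all 12 libraries in 4 groups and 513 (257 and 256) with 9 libraries in 3 groups, an alternative chosen after seeing the data. The common dispersion was 0.0968 with 6 libraries, 0.295 with 12 and 0.154 with 9. Leaving out 1 library gave 535 to 881 calls in either direction, 322 to 492 higher and 213 to 422 lower. DESeq2 called 661 lower genes and 1459 in all, and 1343 genes were called with no filter. With library size as the only scaling 742 were higher and 283 lower. A replicate block gave 1036 calls (591 higher, 445 lower), but same-numbered libraries correlated by only 0.026 to 0.038 in their deviations, so the numbers do not pair them. Hoxa5 was at 3.53 with all 12 libraries (adjusted p = 0.0698, against 2.45e-06 to start with; 1.76e-25 to 0.0698 over its alternatives), at 3.63 with the replicate block and at 3.22 to 4.19 with 1 library left out. The signs that turned belonged to genes that passed no test: with 1 library left out Hoxa2 ran from -0.132 to 0.107 (-0.00348 with 12 libraries), Hoxd3 from -0.0432 to 0.0951, Alas2 from -0.303 to 0.148 (0.00191 with library size only), Slc18a2 from -0.36 to 0.0437, Ddc from -0.475 to 0.592 and Tfap2b from -1.34 to 1.35. The cause of these changes was not tested. A count of 0 in 3 libraries allows up to 3 counts over the group.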

Other observations

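The genes below were taken up after their values were seen, and are given as values. Of 30 imprinted genes, which are expressed from 1 parental copy, 27 were tested, 8 were higher and none was lower, with a median log2 difference of 0.23 (edgeR's quasi-likelihood test throughout), beside 4.18% higher over all tested genes. One of the 8 is Igf2, a member of the meningeal list given above with the vessel genes. Meg3, a noncoding RNA of the Dlk1-Dio3 locus and one of the most abundant transcripts of these cells, was at 5607.0, 5562.8 and 5091.9 CPM in Hoxa5tdTomato against 2421.6, 2657.5 and 2822.7 CPM in the references (log2 difference 1.04 ± 0.0734, adjusted p = 2.12e-07). Rian, from the same locus, was at 728.2, 801.4 and 778.4 CPM in Hoxa5tdTomato against 414.9, 565.8 and 470.4 CPM in the references (log2 difference 0.67 ± 0.109, adjusted p = 0.000755). Mirg, the next transcript along it, did not pass (log2 0.69, adjusted p = 0.0707), although its groups did not overlap. Grb10, a growth inhibitor, was at 87.95, 79.88 and 76.09 CPM in Hoxa5tdTomato against 35.15, 31.56 and 27.4 CPM in the references (log2 difference 1.37 ± 0.187, adjusted p = 0.000146), and Zdbf2 (log2 0.71, adjusted p = 0.00256) and Peg10 (log2 1.10, adjusted p = 0.00519) were higher too. Magel2 (log2 1.44, adjusted p = 0.00988) lost its call without Hoxa5tdTomato replicate 2 (adjusted p = 0.105, where the difference was 1.15; 0.000518 to 0.163 over all alternatives).

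Slc12a5, the potassium and chloride exporter of maturing neurons, was at 70.5, 68.15 and 74.4 CPM in Hoxa5tdTomato against 32.03, 23.74 and 36.09 CPM in the references (log2 difference 1.21 ± 0.204, adjusted p = 0.00102).

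Several abundant nuclear RNAs and RNA-binding proteins were lower. Malat1, a nuclear noncoding RNA, was at 12863.6, 12487.7 and 14347.7 CPM in Hoxa5tdTomato against 16901.6, 17721.6 and 20567.5 CPM in the references (log2 difference -0.48 ± 0.0692, adjusted p = 0.000272). Srrm4, a splicing factor of neurons, was at 154.8, 163.3 and 164.9 CPM in Hoxa5tdTomato against 268.4, 284.8 and 372.4 CPM in the references (log2 difference -0.94 ± 0.129, adjusted p = 0.000153). Hnrnpab (log2 -0.51, adjusted p = 0.00417) lay in the same direction. The 8 genes of this set were picked because they were lower.

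The 14 alpha protocadherin genes of 1 cluster were all called higher, with log2 differences of 0.44 to 0.47, at nearly the same CPM in each library. They share their last exons, so that reads may have been counted for all of them, and the 14 calls are not independent measurements.

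The median width given in the table was 4531 bases for the higher, 5884 bases for the lower and 3399 bases for all tested genes.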
